A study of Mus musculus with 7 samples.

Results

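The matrix metalloproteases (Mmp genes), the ADAMTS proteases (Adamts genes) and the tissue inhibitors of metalloproteases (Timp genes) were read by name from 1-colour arrays of the mouse limb at embryonic day 11.5. The names gave 45 genes on 61 probes, out of 36373 genes on 55681 probes: 22 Mmp genes on 28 probes, 19 Adamts genes on 28 probes and 4 Timp genes on 5 probes. In 22 of the 45 genes the signal stood clear of background on enough arrays to be compared between tissues. The array-level contrast ran both ways: Adamts18, Adamts5, Mmp17 and, by a call that 15 of 22 alternative analyses lost, Adamts14 were higher in the apical ectodermal ridge, and Adamts15, Adamts7, Adamts9, Mmp11 and Timp3 were higher in the comparison ectoderm.

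Metalloproteases of these families are zinc enzymes that are secreted or held at the cell surface, and they cut collagens, proteoglycans and other proteins around cells. Most are made as inactive precursors, and the Timp proteins block the active enzymes by binding the catalytic site. ADAMTS enzymes carry thrombospondin repeats beside the protease domain. A group of them cuts versican and aggrecan, and in the mouse limb the versican-cutting members are known for their part in the later regression of the web between the digits.

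The apical ectodermal ridge (AER) is a ridge of thickened epithelium along the edge of the limb bud, and it signals to the mesenchyme below it. In 3 samples it was microdissected from forelimbs at embryonic day 11.5, and in 4 samples the comparison tissue was surface ectoderm of the posterior limb at the same age, all from C57/Bl6 mice. Each sample pooled tissue of 2 to 3 mice, and neither group carried a stated mutation or treatment. From each sample 75 ng of total RNA was labelled with Cy3 and hybridised to an Agilent array. The labels do not say that the samples came from separate litters, so p-values measure the spread between these pools.

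By its labels the comparison sets the ridge against other limb ectoderm. The labels do not say whether the posterior limb is the posterior side of the forelimb or the hindlimb, so a difference in limb and one in tissue cannot be told apart. Ectoderm replicates 2 and 4 carry the same number in their array names, and the labels do not say whether they share a source. They were counted as separate samples, as titled. Averaged as 1 sample they left 8 members called in place of 9, without Adamts14 (adjusted p = 0.0964). The scanner called 48.7% to 55.2% of the spots well above background on each array, no spot was saturated, and all 7 arrays lay on 1 slide. Log2 signals correlated at 0.980 to 0.988 within AER, 0.985 to 0.995 within ectoderm and 0.946 to 0.968 between the groups. The tissue labels were set against marker lists. All 6 ridge markers and 13 of 14 pan-epithelial markers were higher in AER. Lower in AER were 10 of 12 limb mesenchyme markers, all 6 tested muscle progenitor markers and 3 of 4 tested cartilage and tendon markers. By these lists the groups also differed in epithelial, mesenchymal and muscle RNA, so a member's difference cannot be tied to the ridge alone. Of 6 tested neural crest, Schwann and melanoblast markers 1, the melanin enzyme gene Dct, was higher in AER (adjusted p = 0.00136) and none was lower, with a median difference of 0.47. No Dct probe was above background on more than 1 of 4 ectoderm arrays, so the size of its difference is not given. Sox10 of the same list went the other way, at −1.38, without passing (adjusted p = 0.0886). None of 8 endothelial, 7 macrophage or 6 erythroid markers tested passed the threshold. Ectoderm replicate 3 stood apart from the other ectoderm arrays. Its mean over the ridge markers was −0.14 on the log2 scale used below, against −2.58 to −1.90 on the other 3, and its mean over the mesenchyme markers was 4.42 against 4.84 to 4.87. The ridge gene Fgf8 read 2.20 on this array and −2.33 to −1.40 on the other ectoderm arrays.

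Levels below are log2 processed signals minus the 75th percentile of the same array, so that 0 is the 75th percentile, and differences are AER minus ectoderm. Adjusted p-values are from limma with Benjamini-Hochberg adjustment over all 20823 genes tested, two-sided, with a threshold of 0.05. In this fit 3264 genes passed, or 15.7% of those tested, with 7.03% higher and 8.65% lower in AER. Of the 22 members tested 9 passed, 4 higher and 5 lower. The 3 AER values and the 4 ectoderm values did not overlap in 12 of the 22 members, against 30.3% of all genes tested. The median difference of the 22 members was −0.14, and that of all genes tested was −0.08. By family, 1 of 6 tested Mmp genes was higher and 1 lower, 3 of 13 tested Adamts genes were higher and 3 lower, and of 3 tested Timp genes 1 was lower. In whole-tissue RNA fewer cells of a type and less RNA per cell cannot be told apart.

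**Figure D1:**
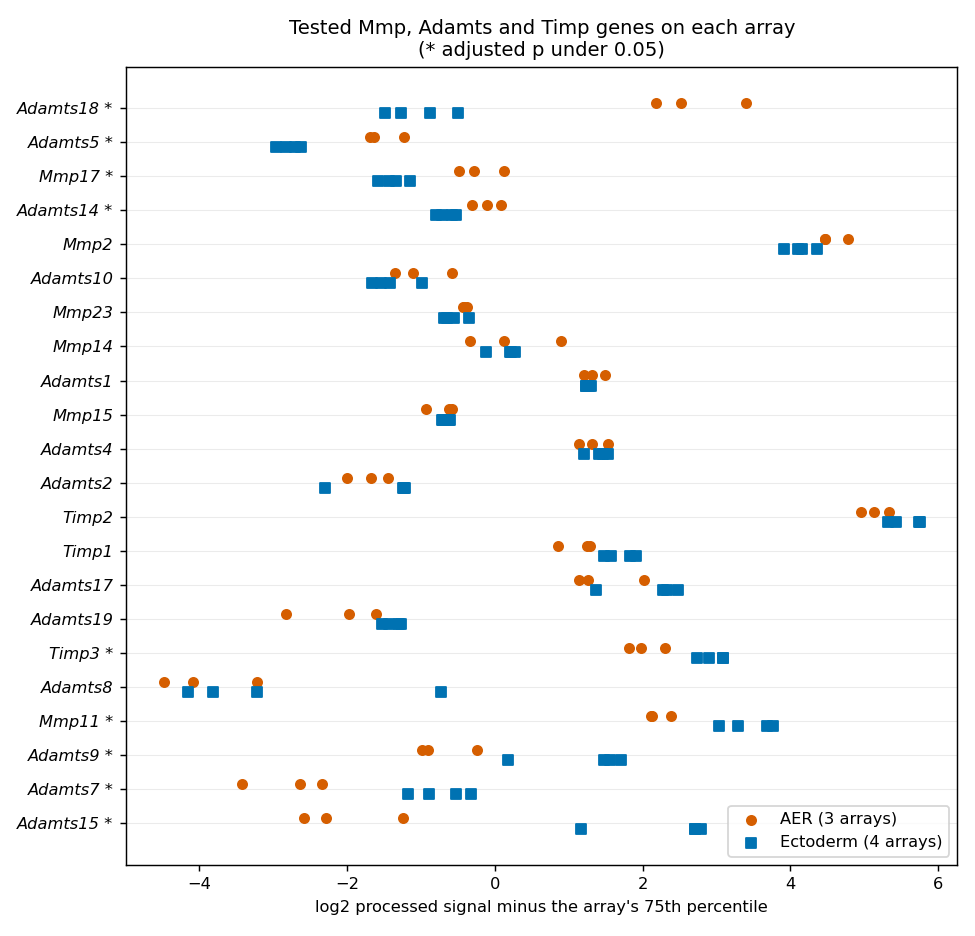
Level of each tested Mmp, Adamts and Timp gene on every array, as log2 processed signal minus the array's 75th percentile, with circles for the 3 AER arrays and squares for the 4 ectoderm arrays. Genes are ordered by their difference, from Adamts18, with AER at 2.18 to 3.39, down to Adamts15, with AER at −2.58 to −1.25. An asterisk marks an adjusted p under 0.05.

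Adamts18 had the widest upward gap of the members. It encodes a secreted ADAMTS enzyme that is paired by sequence with Adamts16. Its 60-base probe lies on chromosome 8, at chr8:116222720-116222779 on the minus strand of the mm9 build, and the 30 bases at its 5′ end are shown because the member with the steepest upward difference rests on this oligonucleotide alone.
Adamts18: ccatagggtttaaagaatggacagatagcc
The processed signals in linear units were 1549, 5909.5 and 2252 in AER, and 221.9, 157.6, 181.3 and 142.4 in ectoderm. Scaled to each array, they were 2.18, 3.39 and 2.52 in AER and −0.88, −1.49, −0.50 and −1.28 in ectoderm. Every AER array lay above every ectoderm array. The means were 2.70 ± 0.62 (SD, n = 3) and −1.04 ± 0.44 (SD, n = 4), a difference of 3.74 (SE 0.33), or 13.3-fold with a 95% interval of 7.92 to 22.5 (adjusted p = 0.000146). It was smaller after normexp background correction, at 2.94, and in the authors' processed values, at 2.96, and past the threshold in both. The ridge marker means ran from 3.10 to 3.88 in AER and from −2.58 to −0.14 in ectoderm. Ectoderm replicate 3, the ectoderm array with the highest ridge marker mean, also had the highest ectoderm level of Adamts18, at −0.50. Without it the difference was 3.92. The part of the ridge markers in this difference was not tested. Adamts16, the sequence partner of Adamts18, was above background on no array with either of its probes.

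Adamts15 had the widest downward gap. It is an ADAMTS of the proteoglycan-cutting group. Its only probe maps to chr9:30707033-30707092 on the minus strand, and its 5′ 30 bases are shown because the steepest downward difference rests on it.
Adamts15: gagtatcttcattgggttatggaccagtaa
The linear signals were 143.3, 115.7 and 65.8 in AER, and 2675, 2899.8, 572.8 and 2377 in ectoderm. On the scaled log2 axis this gave −1.25, −2.28 and −2.58 in AER, against 2.71, 2.71, 1.16 and 2.78 in ectoderm. The groups were well apart, and all 7 arrays were well above background, so that the gene was measurable in AER as well. The difference was −4.38 (SE 0.46), which is 20.8-fold higher in ectoderm with a 95% interval of 10.05 to 42.9 (adjusted p = 0.000367). It was smaller after normexp, at −3.37, and in the authors' processed values, at −3.29, and past the threshold in both. Ectoderm replicate 3 was the lowest ectoderm array, and without it the difference was −4.77 (adjusted p = 5.59e-05).

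The muscle progenitor markers moved with Adamts15. Their mean ran from −4.89 to −3.34 in AER and from 0.38 to 1.20 in ectoderm, with ectoderm replicate 3 at 0.38. Of the 8 markers 1, Lbx1, was above background on all AER arrays, and Msc, Myf5 and Myf6 were above it on none. On the ectoderm arrays 5 of the 8 were above background throughout, and Myf5 and Myf6 again on none. The limb mesenchyme mean ran from 2.16 to 2.36 in AER and from 4.42 to 4.87 in ectoderm, and 10 of its 12 markers were above background on every AER array. These lists moved in the same direction as all 5 members that were lower in AER, and their part in those differences was not tested.

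**Figure D2:**
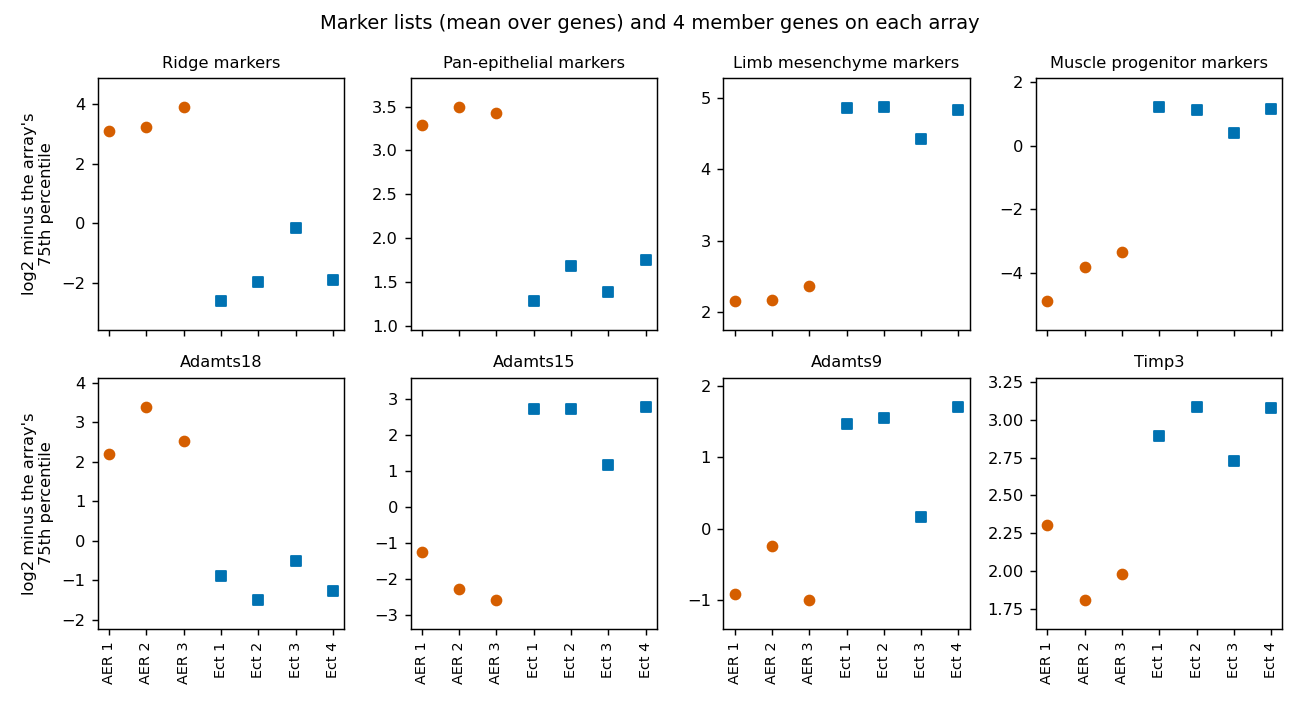
Mean level of 4 marker lists (top row) and level of 4 members (bottom row) on each array, in log2 units relative to the array's 75th percentile, with circles for AER and squares for ectoderm. Ectoderm replicate 3 has the highest ridge mean of the ectoderm arrays, at −0.14, and the lowest Adamts15 and Adamts9 levels, at 1.16 and 0.17. The vertical axes differ between panels.

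Adamts8, which neighbours Adamts15 in the genome and belongs to the same enzyme group, did not pass. The probes of the pair span 63.4 kb, at chr9:30707033-30770443. The brighter Adamts8 probe gave −3.22, −4.09 and −4.48 in AER and −4.16, −0.74, −3.82 and −3.22 in ectoderm, and it was above background on 2 arrays of each group. Ectoderm replicate 2 was high and the other 6 arrays ran from −4.48 to −3.22. Without ectoderm replicate 2 the difference was −0.20 (adjusted p = 0.764), and leaving out ectoderm replicate 1 gave −1.34. With all arrays it was −0.95 with a standard error of 0.75 (adjusted p = 0.419), which allows anything from 6.34-fold higher in ectoderm to 1.71-fold higher in AER. The dimmer Adamts8 probe was above background on no AER array and on 2 of 4 ectoderm arrays. Its linear signals were 5.8, 4.8 and 5.2 in AER and 32.4, 73.3, 9.4 and 52.8 in ectoderm. Below, a fold of at least a value sets the brighter group's mean against a floor on each array of the dimmer group. The floor is the dimmest signal called above background on that array, or the probe's own signal where that is higher. No such fold is given where, as here, some readings of the brighter group were not above background.

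The remaining proteoglycan-cutting genes spread from higher to lower. Adamts5, an aggrecanase that also cuts versican, was higher in AER. Its levels were −1.63, −1.22 and −1.69 in AER and −2.96, −2.71, −2.82 and −2.63 in ectoderm, with no overlap. The difference was 1.26 (SE 0.17), or 2.40-fold with an interval of 1.84 to 3.14 (adjusted p = 0.00135). It moved by more than 1.5 times with the background correction, to 0.66 after normexp and to 0.71 in the authors' processed values, and it stayed past the threshold in both. A second, dimmer Adamts5 probe gave linear signals of 41.9, 76.9 and 73.3 in AER and 15.5, 24.6, 7.8 and 15.8 in ectoderm. It was above background on 2 of 3 AER arrays and on no ectoderm array. The pan-epithelial marker mean ran from 3.29 to 3.49 in AER and from 1.29 to 1.75 in ectoderm, and the median difference of its 14 markers was 1.78. This list moved in the same direction as all 4 members that were higher in AER, and its part in those differences was not tested.

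Adamts9, a versican-cutting enzyme of the same group, was lower in AER. Its levels were −0.91, −0.24 and −0.99 in AER and 1.47, 1.55, 0.17 and 1.71 in ectoderm. The highest AER array and the lowest ectoderm array came within a short distance of each other, and the other arrays were wide apart. The difference was −1.94 (SE 0.38), or 3.84-fold higher in ectoderm with an interval of 2.11 to 6.97 (adjusted p = 0.00924). Without ectoderm replicate 3 it was −2.29 (adjusted p = 0.000412).

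Adamts1 and Adamts4, also of the proteoglycan-cutting group, did not pass. Adamts1 stood at 1.21, 1.31 and 1.48 in AER and 1.23, 1.30, 1.23 and 1.27 in ectoderm, a difference of 0.07 with a fold interval of 0.849 to 1.31 (adjusted p = 0.743). It is the genomic neighbour of Adamts5, and the probes of the pair lie within 104.5 kb of chromosome 16. Adamts4 stood at 1.32, 1.53 and 1.14 in AER and 1.53, 1.46, 1.21 and 1.41 in ectoderm. Its difference was −0.07 (adjusted p = 0.782), and the sign turned under other scalings, to 0.031 when the scaling percentile came from probes detected on every array, and to 0.17 after normexp. The dimmer Adamts4 probe gave −0.25 (adjusted p = 0.272 over all kept probes), with every AER array below the ectoderm arrays. Adamts20 was above background on no array. Of the 7 genes of this group 6 were tested, with 1 higher and 2 lower in AER.

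Versican (Vcan), their shared substrate, differed by −0.04 (adjusted p = 0.917) and aggrecan (Acan) by −0.11 (adjusted p = 0.659). Acan was dim, with means of −3.49 in AER and −3.38 in ectoderm. It was above background on 2 of 3 AER arrays, so its difference says little.

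Adamts7, an enzyme that cuts cartilage oligomeric matrix protein, was lower in AER. Its levels were −3.43, −2.34 and −2.63 in AER and −0.90, −0.33, −1.17 and −0.53 in ectoderm. All AER arrays lay below all ectoderm arrays. The difference was −2.07 (SE 0.30), or 4.20-fold higher in ectoderm with an interval of 2.63 to 6.72 (adjusted p = 0.00195). It was −1.20 after normexp and −1.16 in the authors' processed values, both past the threshold. Comp, the gene of that substrate, was above background on all 4 ectoderm arrays and on no AER array, at least 7.05-fold higher in ectoderm, and it passed the filter on dim probes through the ectoderm arrays alone. Adamts12, which also cuts this substrate, was above background on no array with either probe.

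The procollagen N-proteinases trim the amino-terminal propeptide from fibrillar procollagens. Adamts14 was slightly higher in AER by the fit, at −0.31, −0.10 and 0.08 in AER and −0.71, −0.80, −0.59 and −0.53 in ectoderm. The groups did not overlap, with a difference of 0.55 (SE 0.15), or 1.46-fold with an interval of 1.14 to 1.87 (adjusted p = 0.0456). This call fell away under 15 of 22 alternative analyses, with adjusted p from 0.0220 to 0.762 and no change of sign. Its value was 0.25 after normexp and 0.26 in the authors' processed values. Leaving out AER replicate 1 kept the call, and leaving out any of the other 6 arrays lost it, with differences of 0.45 to 0.59 and adjusted p of 0.0708 to 0.127. The Adamts14 probes disagreed, and their 5′ 30 bases are shown to identify them.
Adamts14 probe with signal: tcaagtcatgtgtggaccggcctggagatg
Adamts14 probe at background: gcccctcatcgggagtaataatgtgctcct
The probe with signal maps to chr10:60659860-60659919 and the probe at background to chr10:60668150-60668209, both on the minus strand. The latter gave linear signals of 5.1 to 16.6 and was above background on no array.

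Adamts2 did not pass, at −2.0, −1.45 and −1.67 in AER and −1.22, −1.25, −2.30 and −1.23 in ectoderm (difference −0.21, adjusted p = 0.657, and −0.48 to −0.057 over the alternatives). Its other probe was also above background on no array. Adamts3 was not bright enough to be tested. Its linear signals were 29.3, 106.2 and 54.2 in AER and 16.1, 16.5, 5.3 and 10.7 in ectoderm. It was above background on 2 of 3 AER arrays and on no ectoderm array. With no filter on dim probes the fit gave 2.07 (adjusted p = 0.00795). The ectoderm readings behind this value were not above background, so its size is not interpreted.

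Of the fibrillin-associated pair, Adamts10 stood at −1.36, −0.58 and −1.11 in AER and −0.99, −1.54, −1.42 and −1.66 in ectoderm (difference 0.39, adjusted p = 0.293, and −0.043 to 0.82 over the alternatives), and Adamts6 was above background on no array. Adamts17 stood at 1.14, 2.01 and 1.26 in AER and 2.27, 2.48, 1.36 and 2.33 in ectoderm (difference −0.64, adjusted p = 0.207, and −0.94 to −0.38 over the alternatives). Its dimmer probe gave −0.39 (adjusted p = 0.295 over all kept probes).

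Adamts19 is printed on 10 spots of each array, so that its technical spread can be seen. Its levels were −2.83, −1.61 and −1.97 in AER and −1.53, −1.30, −1.27 and −1.44 in ectoderm, with every AER array below the ectoderm arrays. The difference was −0.75 (SE 0.27), with an adjusted p of 0.0964. The SD over the 10 spots was 0.24, 0.30 and 0.11 on the AER arrays and 0.09 to 0.17 on the ectoderm arrays, against SDs between samples of 0.62 in AER and 0.12 in ectoderm. Each sample value is a mean over its spots and spreads less than single spots do. The spot SDs are therefore larger than the technical error of a sample value, and the 2 kinds of SD are not alike. Without AER replicate 2 the difference was −1.01 (adjusted p = 0.0360), and without AER replicate 1 it was −0.41 (adjusted p = 0.156). Adamts13, which cuts von Willebrand factor, was above background on no array with either probe.

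**Figure D3:**
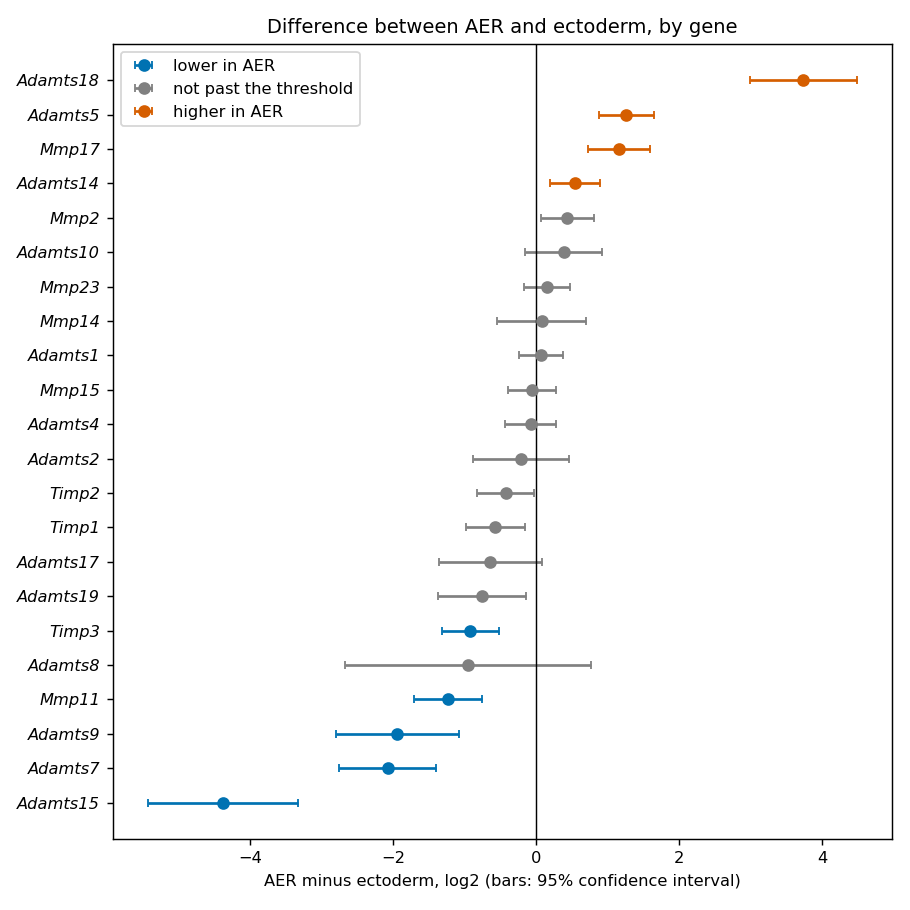
Difference between AER and ectoderm for each tested member, on the log2 scale, with bars for the 95% confidence interval of the fit and colour for the call. Adamts18 at 3.74 and Adamts15 at −4.38 lie outside the range of the other members, whose differences run from −2.07 to 1.26.

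Among the matrix metalloproteases 6 of 22 genes were bright enough to test. Mmp17, a membrane-type enzyme held at the surface by a glycolipid anchor, was higher in AER. Its levels were −0.29, 0.13 and −0.49 in AER and −1.59, −1.43, −1.34 and −1.15 in ectoderm, with no overlap. The difference was 1.16 (SE 0.19), or 2.23-fold with an interval of 1.65 to 3.01 (adjusted p = 0.00388). After normexp it was 0.52 and missed the threshold (adjusted p = 0.0529), and in the authors' processed values it was 0.53 (adjusted p = 0.0420). The probe is at chr5:130113835-130113894 on the plus strand.

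Mmp11 (stromelysin-3), which is activated inside the cell by furin-like convertases, was lower in AER. Its 2 probes, whose starting bases are shown because different oligonucleotides measured the gene, lie close together on the minus strand of chromosome 10, at chr10:75386024-75386083 and chr10:75386209-75386268.
Mmp11 brighter probe: gcacaggtaccctctaagccatgtacatgt
Mmp11 dimmer probe: tggagagatagtgaactgatcatattctgg
The brighter probe gave 2.12, 2.39 and 2.13 in AER and 3.28, 3.68, 3.03 and 3.76 in ectoderm. The dimmer gave 0.85, 1.05 and 1.02 in AER and 2.22, 2.54, 1.95 and 2.71 in ectoderm. On both probes all AER arrays lay below all ectoderm arrays. The difference was −1.23 (SE 0.21) by the brighter probe, or 2.34-fold higher in ectoderm with an interval of 1.69 to 3.25 (adjusted p = 0.00460). It was −1.38 (SE 0.20) by the dimmer probe (adjusted p = 0.00210 over all kept probes). Mmp3 and Mmp10, the other stromelysins, were above background on no array.

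Mmp2 (gelatinase A) gave linear signals of 9343, 12456 and 8687 in AER and 6185, 7631, 5252 and 6149 in ectoderm. Scaled, it stood at 4.78, 4.47 and 4.47 in AER and 3.92, 4.10, 4.35 and 4.15 in ectoderm. The groups did not overlap, but the difference of 0.44 (SE 0.16) did not pass the threshold (adjusted p = 0.109). Over all genes, scaling by the percentile of probes detected on all 7 arrays moved the median difference by 0.105 and the share of calls that were higher from 44.8% to 57.4%. Under that scaling Mmp2 passed, at 0.54 (adjusted p = 0.0445). It also passed after quantile normalization (0.60, adjusted p = 0.0172), after normexp (0.64, adjusted p = 0.0260) and in the authors' processed values (0.76, adjusted p = 0.00707). Mmp9 (gelatinase B) was above background on no array, with linear signals of 4.5 to 8.1.

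Mmp14, the membrane-type enzyme that activates Mmp2 with the help of Timp2, stood at 0.12, 0.89 and −0.34 in AER and 0.21, 0.27, −0.12 and 0.21 in ectoderm. AER replicate 2 lay above and AER replicate 3 below the ectoderm arrays. The difference was 0.08 (SE 0.27, adjusted p = 0.867), and without AER replicate 2 it was −0.25 (adjusted p = 0.408). Mmp15, another transmembrane member, stood at −0.93, −0.58 and −0.62 in AER and −0.72, −0.62, −0.70 and −0.61 in ectoderm. Its difference of −0.05 (adjusted p = 0.840) turned to 0.053 when the scaling percentile came from probes detected on every array, and to 0.14 after normexp. Mmp23, which is held at the membrane by its amino terminus, stood at −0.38, −0.42 and −0.43 in AER and −0.35, −0.65, −0.68 and −0.55 in ectoderm (difference 0.15, adjusted p = 0.494, and 0.11 to 0.29 over the alternatives).

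The remaining 16 Mmp genes were not tested, and 9 of them were above background on no array: Mmp3, Mmp7, Mmp8, Mmp9, Mmp10, Mmp12, Mmp13, Mmp16 and Mmp19. All 4 collagenase genes (Mmp1a, Mmp1b, Mmp8 and Mmp13) and the matrilysin gene Mmp7 were among the untested. The other 7 were above background on 1 or 2 arrays. Mmp25 was called on 2 AER arrays, at linear signals of 31.4 and 36.5, but the remaining AER value of 15.9 lay inside the ectoderm range of 6.5 to 29.3. Mmp28 was called on AER replicate 3 alone, at 29.8. Mmp1a was called on ectoderm replicate 1 (54.8), Mmp1b on ectoderm replicate 3 (46.8) and Mmp21 on ectoderm replicate 2 (40.2), each by a single probe with the other 6 arrays under 10. Mmp27 was called on 1 ectoderm array. Mmp24 gave 397.9 on ectoderm replicate 2 and 4.7 to 9.3 on the other 6 arrays, while its other probe was above background on none.

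**Figure D4:**
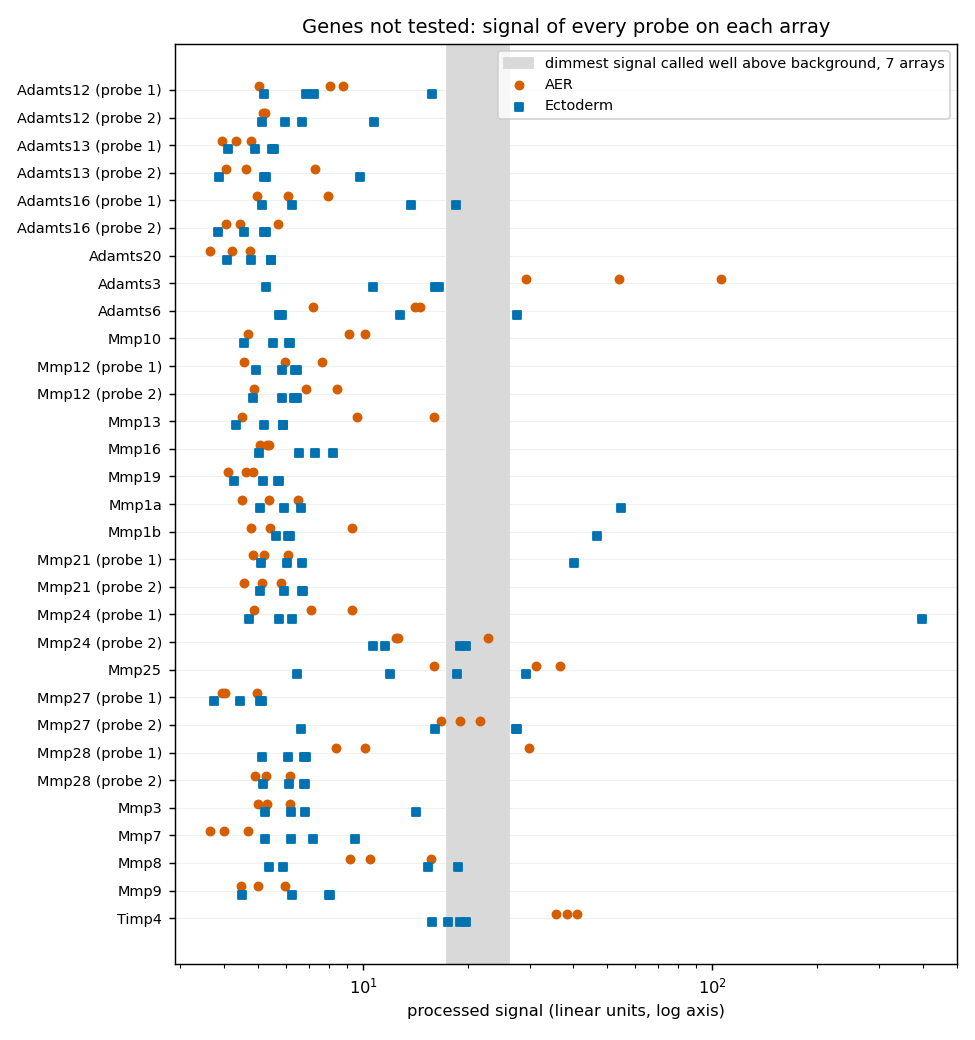
Linear processed signal, on a log axis, of each of the 31 probes of the 23 untested genes on every array, with circles for AER and squares for ectoderm. The grey band runs from 17.4 to 26.2, the range over the 7 arrays of the dimmest signal called well above background. Adamts3 and Timp4 lie above the band in AER, and Mmp24 has a single ectoderm reading of 397.9.

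Of the untested genes, 9 Mmp genes form a cluster on chromosome 9. Their 11 probes span 415 kb of mm9, at chr9:7282762-7697700, and belong to Mmp1a, Mmp1b, Mmp3, Mmp7, Mmp8, Mmp10, Mmp12, Mmp13 and Mmp27. Only 3 of the 77 probe readings in the cluster were above background, and the highest linear signal was 54.8. The proximal promoters of several of these genes are textbook examples of AP-1 sites, the element bound by Fos and Jun dimers. In the RefSeq promoter table for GRCm38.p6, 31 of the 45 members matched by symbol, with 34 promoters. The motif TGANTCA was searched on both strands in the 250 bases before each start, and it reads alike on both strands apart from the middle base. It was present in 7 of 20 promoters of untested members (35%), in 0 of 14 promoters of tested members, and in 6.75% of all 32851 promoters in the table. The 7 belong to Mmp1a, Mmp1b, Mmp3, Mmp7, Mmp10, Mmp12 and Mmp13, all in the cluster. They are shown with 15 flanking bases on each side and the motif in capitals, in the direction of the gene, because the 7 genes are neighbours, 5 of them above background on no array and the other 2 on 1 array each.
Mmp1a: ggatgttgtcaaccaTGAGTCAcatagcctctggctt
Mmp1b: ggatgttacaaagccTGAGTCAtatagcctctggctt
Mmp3: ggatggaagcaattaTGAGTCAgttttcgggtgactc
Mmp7: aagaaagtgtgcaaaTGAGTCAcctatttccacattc
Mmp10: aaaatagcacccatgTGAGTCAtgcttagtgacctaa
Mmp12: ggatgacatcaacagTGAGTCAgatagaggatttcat
Mmp13: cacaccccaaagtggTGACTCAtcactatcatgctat
The motif begins 35 to 93 bases before the start. In GRCm38.p6 the Mmp1a window is chr9:7464053-7464089 on the plus strand, and the Mmp1b window is chr9:7388098-7388134 on the minus strand. These genes lie next to each other and arose by gene duplication, so the 7 are not independent. A match says only that the letters are present.

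The shares of other promoter features are given for the same sets, and matches of different motifs can overlap. The promoters of tested members cover 13 of the 22 tested genes, and the called genes Adamts5, Adamts7, Adamts15 and Mmp17 are not among them. The GC box GGGCGG, on either strand, was present in 11 of 14 promoters of tested members (78.6%), in 5 of 20 of untested members (25%) and in 32.7% of all promoters. The untested members with it were Adamts3, Adamts20, Mmp24, Mmp25 and Mmp28, all outside the cluster. No promoter of the cluster had it, so the share of untested members depends on promoters that are not independent. The TATA motif TATAAA was present in 1 of 14 promoters of tested members, in 7 of 20 of untested members and in 12.4% of all promoters. The untested members with it were Mmp21 and, from the cluster, Mmp1a, Mmp1b, Mmp3, Mmp7, Mmp10 and Mmp13, so these too are not independent. The tested member was Adamts1, shown with the motif in capitals, and a GC box follows it in the window.
Adamts1: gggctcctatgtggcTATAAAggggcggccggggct
The LEF/TCF motif CTTTGAA was present in 0 of 14, 1 of 20 and 4.46%. The median number of CpG dinucleotides was 15 in promoters of tested members, 2 in those of untested members and 6 in all promoters. Promoters of the cluster held 0 to 7, and those of the other untested members 1 to 35. The low median of the untested members thus leans on the cluster, whose promoters are not independent.

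The inhibitors were lower in AER or did not pass. Timp3, which stays bound to the matrix and also blocks aggrecanases, stood at 2.31, 1.81 and 1.98 in AER and 2.89, 3.09, 2.73 and 3.08 in ectoderm, with no overlap. The difference was −0.92 (SE 0.17), or 1.89-fold higher in ectoderm with an interval of 1.43 to 2.48 (adjusted p = 0.00829). It was −0.61 in the authors' processed values (adjusted p = 0.0356). The probe is at chr10:85811696-85811755 on the plus strand.

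Timp2, which both inhibits Mmp2 and takes part in its activation, stood at 5.34, 5.13 and 4.95 in AER and 5.44, 5.75, 5.32 and 5.74 in ectoderm. Its difference was −0.42 (SE 0.17, adjusted p = 0.144), and it was −0.25 after quantile normalization, −0.20 after normexp and −0.074 in the authors' processed values. On its dimmer probe, at 2.20, 1.79 and 2.22 in AER and 2.43, 2.57, 2.60 and 2.64 in ectoderm, the groups did not overlap and the difference was −0.49 (adjusted p = 0.0792 over all kept probes). Timp1 stood at 1.24, 0.85 and 1.29 in AER and 1.47, 1.90, 1.58 and 1.83 in ectoderm, with every AER array below the ectoderm arrays (difference −0.57, SE 0.18, adjusted p = 0.0669). It was −0.33 after normexp and −0.32 in the authors' processed values. Neither gene passed the threshold under any of the 22 alternatives. Timp4 gave linear signals of 40.9, 35.6 and 38.3 in AER and 15.7 to 19.7 in ectoderm. It was called above background on 1 AER array and no ectoderm array, so its fold is not given. Scaled to each array's percentile its groups overlapped, and with no filter the fit gave 0.85 (adjusted p = 0.171).

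A list of 36 related genes covered other proteases, their activators, inhibitors and substrates. Of 30 tested, AER was higher for 4 (13.3%) and lower for 3 (10%), and the other 23 missed the threshold. Over all genes tested the shares were 7.03% higher and 8.65% lower. The higher genes were Serpine2, a serine protease inhibitor that blocks plasminogen activators and thrombin (2.68-fold, adjusted p = 0.000363), Pcsk6, a proprotein convertase (3.42-fold, adjusted p = 0.00170), Adam9, a membrane metalloprotease (1.96-fold, adjusted p = 0.00211), and the ADAMTS-like gene Adamtsl5. Adamtsl5 was above background on all 3 AER arrays and on no ectoderm array, at least 1.29-fold higher, and it passed the filter through the AER arrays alone. Apart from Comp, the lower genes were the fibrillin gene Fbn1 (3.20-fold higher in ectoderm, adjusted p = 0.00278) and the plasminogen activator Plat. The fitted difference of Plat was −2.04 (adjusted p = 0.00331), but only 1 of its 3 AER readings was above background, so its fold is not given. Reck, a membrane-anchored inhibitor of metalloproteases, differed by −0.82 without passing (adjusted p = 0.0787). Furin, a convertase that activates several members, differed by −0.07 (adjusted p = 0.803).

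The arrays lay in 2 rows of the slide, with AER replicate 1 and ectoderm replicates 1, 2 and 3 in row 1, and AER replicates 2 and 3 and ectoderm replicate 4 in row 2. Every called member kept its direction within both rows. Within row 1 and row 2 in turn the differences were 3.14 and 4.23 for Adamts18, −3.44 and −5.21 for Adamts15, −2.63 and −1.96 for Adamts7, and −1.98 and −2.32 for Adamts9. They were 1.20 and 1.17 for Adamts5, 1.16 and 0.97 for Mmp17, −1.21 and −1.51 for Mmp11, −0.60 and −1.19 for Timp3, and 0.39 and 0.52 for Adamts14. Adamts18, Adamts7 and Adamts19 passed within row 1, and Adamts18, Adamts15, Adamts7 and Adamts9 within row 2.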

How the data were processed

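RNA from 3 AER and 4 ectoderm samples was measured on 1-colour Agilent arrays of 62976 spots. The deposited intensity values are Feature Extraction 10.7.3.1 processed signals, background-subtracted per the file headers, and the authors also deposited log2 values per array. The submitters' processing notes name limma, with the version and settings not given in the sources used here. Probe positions are those of mm9, per the file headers. No genome of that build was used, so the exon or UTR under a probe was not looked up. Control and outlier spots were left out, replicate spots averaged, and log2 intensity minus the array's 75th percentile taken. Probes well above background on at least 3 of 7 arrays were kept (28276), and the probe with the highest mean stood for a gene (20823 genes). A gene kept only through the brighter group had to differ. Symbols were updated through RefSeq by accession (26300 probes), symbol (2044) or older symbol (355), and otherwise kept (26982). Groups were taken from the sample titles and compared with limma 3.58.1 (lmFit and eBayes, R 4.3.3), after a check on simulated data. Every member by name is accounted for. Members passing the threshold, or above background on all arrays, are given array by array, and of the related genes up to 4 per direction. Members and lists were chosen with earlier results of these data known. The 22 alternatives cover background correction, scaling, the authors' values, filters, probe choice, names, array weights, slide row, replicate number and left-out arrays. The number of arrays limits precision. The labels do not say that the replicate numbers pair the samples, so they were not taken as pairs. Same-numbered samples had deviations correlated at −0.03, 0.19 and 0.13, which cannot exclude pairing.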

Additional observations from a re-analysis of the deposited data

Results flagged for a closer look

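In 4 of the 22 tested members ectoderm replicate 3 was flagged as a low outlier among the ectoderm arrays, by Dixon's test at 95%. It read 1.16 for Adamts15, 0.17 for Adamts9, −2.30 for Adamts2 and −0.12 for Mmp14, against 2.71 to 2.78, 1.47 to 1.71, −1.25 to −1.22 and 0.21 to 0.27 on the other 3. The test sets the gap against the range, so it can flag a small gap where the other values lie close, as in Mmp14. Chance flags about 1 in 20 groups. Without this array the differences were −4.77, −2.29, −0.48 and −0.0063.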

How the results depend on the processing

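All 9 called members kept their direction under the 22 alternatives, and Adamts18 and Adamts7 were past the threshold in each. Outside the fits within a slide row 7 of the 9 were past it in each, the exceptions being Mmp17 after normexp (0.52) and Adamts14. Within slide row 1 the fit called 650 genes (238 higher, 412 lower) and 3 members (1 higher, 2 lower), and within row 2 it called 1388 (546 higher, 842 lower) and 4 members (1 higher, 3 lower), with fewer samples in each. Leaving out each array in turn gave 2197 to 3273 genes, of which 1019 to 1361 were higher and 1178 to 1915 lower, the fewest lower without ectoderm replicate 4 (1178 against 1801), and 8 to 9 members, of which 3 to 4 were higher and 5 to 6 lower. Averaging ectoderm replicates 2 and 4 gave 2263 genes and 8 members. With the replicate number as a block the counts were 2441 genes and 8 members (3 higher, 5 lower), and Adamts14 was no longer called. The samples share only a number. By deviations from the group mean AER replicate 2 correlated best with ectoderm replicate 2, at 0.19. AER replicates 1 and 3 both correlated best with ectoderm replicate 3, at 0.18 and 0.13. These correlations cannot settle whether the numbers mark pairs. The sign turned only in members that did not pass, and the cause was not tested. Adamts4 became 0.17 (normexp), 0.031 (percentile of probes detected on every array), 0.18 (authors' values) and 0.020 (without AER replicate 3), and ran from −0.17 to 0.020 with arrays left out. Mmp15 became 0.14, 0.053 and 0.15 under the same 3 scalings and 0.0028 within row 2, and ran from −0.12 to 0.059 with arrays left out, the highest without AER replicate 1. Mmp14 became −0.20 with array weights, −0.0026 within row 1, −0.25 without AER replicate 2 and −0.0063 without ectoderm replicate 3, and ran from −0.25 to 0.36. Adamts1 became −0.047 within row 1 and −0.00076 to 0.14 with arrays left out, the lowest without AER replicate 3, and Adamts10 became −0.043 within row 1. Signals near background have no order, which limits the 23 untested members.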
